A study of Mus musculus with 48 samples.

Results

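The hnRNP and SR splicing protein genes were taken as the protein-coding genes of the mm9 (NCBIM37) annotation whose symbol starts with Hnrnp, Hnrp, Srsf, Sfrs, Sf3a or Sf3b. There were 40 such genes of 22380, grouped by symbol alone: 20 hnRNP genes, 12 SR genes (Srsf and Sfrs symbols, protein domains not checked) and 8 SF3 genes. Their m6A peaks were read from lists made by MeRIP-seq, in which fragments of hippocampal RNA were pulled down with an anti-m6A antibody and sequenced beside the unselected input RNA, and in which a peak is a stretch with more reads in the pull-down than in the input. The lists came from 24 male mice, 3 in each of 8 conditions. WT mice (HdhQ7/7) were compared with Hdh+/Q111 (KI) mice (HdhQ7/Q111), which carry an expanded CAG repeat knocked into 1 of the 2 copies of the mouse huntingtin gene and thus express it from the gene's own promoter in every cell type that uses the gene. Mice of both genotypes were 5 or 8 months old. They were either naive (not trained) or were taken 30 min after a single 10 min training session in the object location task (OLT), a spatial memory task in which mice explore objects in an arena. Each replicate was a different animal and the whole hippocampus was used. A change in bulk RNA can come from fewer cells of a type or from less RNA per cell, and these cannot be told apart here.

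m6A is a methyl group that the METTL3 and METTL14 complex places on adenosines of mRNA while it is being made, mostly within DRACH sequences (A, G or T, then A or G, then AC, then A, C or T). hnRNP proteins coat nascent transcripts and often repress splice sites, SR proteins bind exonic enhancers through an RNA recognition motif and recruit the splicing machinery through a domain rich in arginine and serine, and SF3A and SF3B proteins are parts of the U2 snRNP that holds the branch site of the intron. Several of these proteins also read m6A or act beside its readers: HNRNPA2B1 and HNRNPC bind methylated or structurally opened RNA, and SRSF3 and SRSF10 bind the nuclear reader YTHDC1.

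The sequences below are 100 bp windows centred on the median peak summit of 8 coding regions, written 5′ to 3′ on the gene's strand (mm9), with each GGAC in capitals. Hnrpll (chr17:80461173-80461272, minus strand, exon 1 of the gene) and Hnrnpul2 (chr19:8897997-8898096, plus strand, 6 animals) are shown because a peak there differed between genotypes. The merged Hnrpll region was called in 22 of 24 animals but runs past the start of the gene. In 18 animals a peak lay on the stretch of exon 1 that differed. Hnrnpu (chr1:180267382-180267481, minus strand, 22 animals) stands for the first-exon peaks of the hnRNP genes. Hnrnph2 (chrX:131139744-131139843, plus strand), Hnrnpr (chr4:135895576-135895675, plus strand), Srsf4 (chr4:131456466-131456565, plus strand), Srsf12 (chr4:33318088-33318187, plus strand) and Sf3b4 (chr3:95977747-95977846, plus strand) are regions called in all 24 animals.
Hnrpll: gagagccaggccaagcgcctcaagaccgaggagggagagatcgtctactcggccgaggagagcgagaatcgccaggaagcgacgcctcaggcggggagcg
Hnrnpul2: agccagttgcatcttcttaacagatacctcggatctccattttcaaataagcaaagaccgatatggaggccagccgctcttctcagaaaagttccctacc
Hnrnpu: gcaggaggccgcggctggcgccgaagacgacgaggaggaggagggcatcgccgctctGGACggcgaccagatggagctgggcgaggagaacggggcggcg
Hnrnph2: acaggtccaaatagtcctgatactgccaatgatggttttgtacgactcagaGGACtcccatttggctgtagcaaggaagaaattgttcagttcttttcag
Hnrnpr: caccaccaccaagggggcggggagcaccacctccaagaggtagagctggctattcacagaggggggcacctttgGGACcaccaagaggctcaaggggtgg
Srsf4: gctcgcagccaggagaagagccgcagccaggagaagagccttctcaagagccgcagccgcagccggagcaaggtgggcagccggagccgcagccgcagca
Srsf12: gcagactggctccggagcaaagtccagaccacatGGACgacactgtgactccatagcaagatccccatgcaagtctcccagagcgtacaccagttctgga
Sf3b4: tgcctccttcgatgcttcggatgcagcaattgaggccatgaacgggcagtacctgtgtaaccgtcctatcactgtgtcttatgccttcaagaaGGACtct

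The windows of Hnrnpu, Hnrnph2, Hnrnpr, Srsf12 and Sf3b4 each hold 1 GGAC, and those of Hnrpll, Hnrnpul2 and Srsf4 hold none. Read from its first base, 12 of the 33 full triplets of the Srsf4 window are agc, a codon of serine, and 6 are cgc, a codon of arginine. It has 0 DRACH matches. The Srsf4 region, called in 24 of 24 animals, is 1801 bp long and its summits span 787 bp, so the window shows only a part of it.

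Most of the splicing protein genes carried m6A peaks, but only a part of them in every mouse. Of the 40 genes, 12 had a peak in all 24 animals (30%, against 35.3% of all protein-coding genes), 13 in 12 to 23 animals, 12 in 1 to 11 and 3 in none (7.5%, against 38% of all genes). The median was 21 animals, against 10 over all genes and 24 over the 13874 genes with a peak in any animal. The 12 genes were Hnrnph2, Hnrnpr, Hnrnpu and Hnrnpul1, the SR genes Srsf1, Srsf4, Srsf5, Srsf9, Srsf12 and Sfrs18 (Pnisr), and Sf3b4 and Sf3b5, which encode subunits of SF3B. By group they were 4 of 20 hnRNP genes, 6 of 12 SR genes and 2 of 8 SF3 genes.

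No peak was called in any animal on Hnrnpc, which encodes a protein of uridine tracts, on Hnrnph1, which encodes a binder of G runs, or on Srsf3. Other family members were near that end. Hnrnpa1, the gene of the classical splicing repressor, had a peak in 1 animal, Srsf2 (SC35) in 3, Srsf6 and Srsf7 in 4 each, Hnrnpa2b1 in 5, and Hnrnpk, Hnrnpab, Hnrnpul2 and Sf3b2 in 6 each. The 3 SF3A genes all fell into the lower part, with peaks on Sf3a1 in 11 animals, on Sf3a2 in 8 and on Sf3a3 in 4, whereas Sf3b1, the subunit that contacts the branch site, had them in 18 and Sf3b3 in 15. A gene with no call is a gene below the caller's threshold and not a gene shown to lack m6A. In all, 1061 peaks lay on the 40 genes. Hnrnpul1, which encodes an hnRNP U-like nuclear protein, held 130 of them in 10 separate regions, with 2 to 10 peaks per animal and a median of 6.

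**Figure D1:**
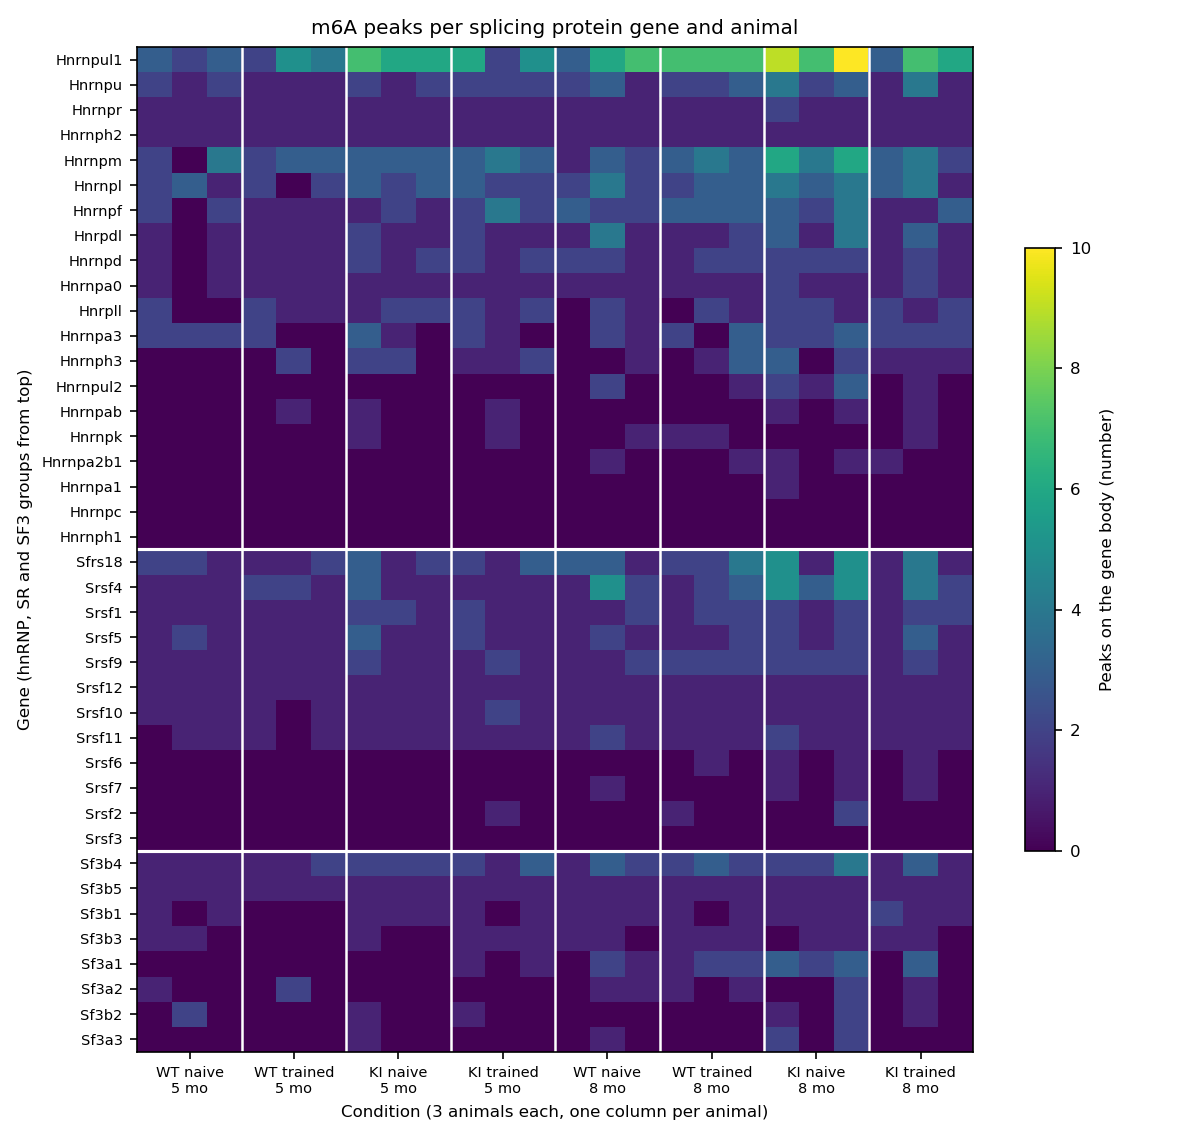
Number of m6A peaks on the body of each of the 40 genes (rows, in hnRNP, SR and SF3 blocks) in each of the 24 animals (columns, 3 per condition). Colour runs from 0 to 10 peaks. Hnrnpul1 is the brightest row in most animals, the 8-month naive KI columns are the brightest block, and Hnrnpc, Hnrnph1 and Srsf3 stay at 0.

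Overlapping peaks of the 24 lists were merged into 81807 common regions, 105 of them on these genes. Of the 105, 10 were called in all 24 animals (9.52%, against 16.9% of the regions on protein-coding genes), 20 in 22 to 24 animals (19%, against 22.8%) and 32 in 1 or 2 animals (30.5%, against 34.4%). The median of 5 animals was the same for both.

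The 20 regions called in 22 to 24 animals lay in different places in the hnRNP and SR genes. In 7 of 8 SR genes they lay in the last exon (median exon length 2420 bp, median position 89.8% of the way along the gene). These were Srsf1, Srsf4, Srsf5, Srsf10, Srsf11, Srsf12 and Sfrs18, and the exception was Srsf9 (SRp30c), whose region in all 24 animals lay in an intron. On Srsf10, 11 summits lay in coding sequence and 12 in introns, so the last exon and coding labels of its region are uncertain. Among 10 hnRNP genes, 5 had the region in the first exon: Hnrnpu, a chromatin-bound scaffold protein (exon of 845 bp), Hnrpll (678 bp), Hnrnpd, the AU-rich element binder AUF1 (547 bp), its relative Hnrpdl (503 bp) and Hnrnpul1 (390 bp). Of the other hnRNP genes, Hnrnph2 and Hnrnpr had it in the last exon, Hnrnpm in an inner exon of 803 bp, and the single-exon gene Hnrnpa0 in its 2678 bp exon. Hnrnpl had it in a stretch that is an exon only in a retained-intron transcript, with 28 summits there and 16 in intron. The median position over the 10 was 20.6% along the gene. The Hnrpll region ran past the start of the gene, where some of its 22 calls lay: the gene itself had a peak in 20 animals. Over all 15451 regions called as steadily, 47.3% lay in last exons, 9.05% in first exons, 19.1% in inner exons and 2.82% in single-exon genes, with a median position of 79.5%. The Sf3b5 region covered a single-exon gene of 733 bp, and that of Sf3b4 lay in an inner exon of 543 bp. These counts are small and are given as a description.

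**Figure D2:**
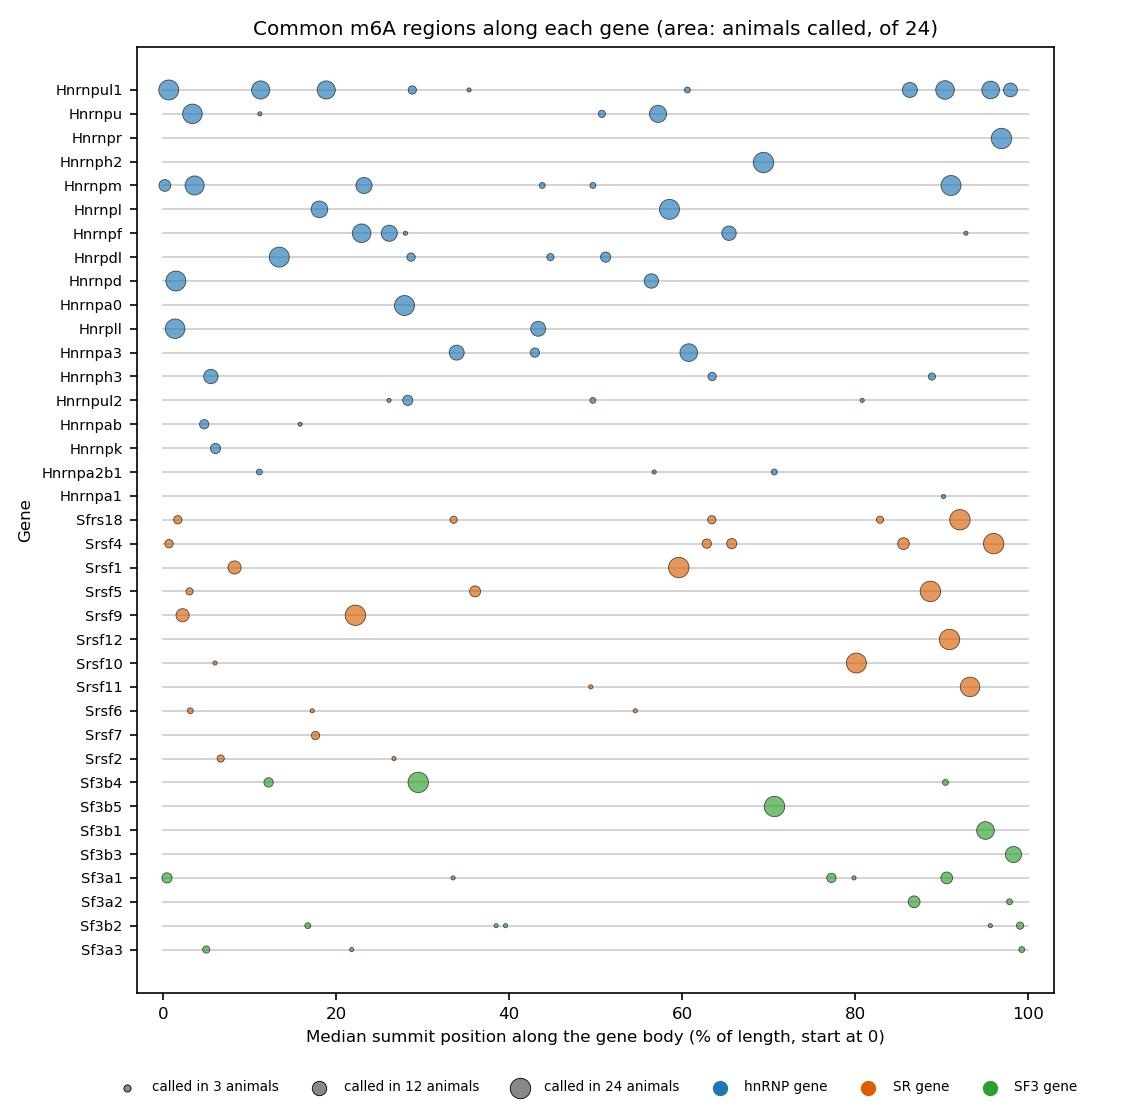
Common m6A regions along each gene with a region, as the median summit position in percent of the gene's length from its start (x axis), with marker area for the number of animals called, of 24. Large SR markers sit between 59.6% and 96% except that of Srsf9 at 22.2%, and large hnRNP markers sit at the left end for Hnrnpul1, Hnrnpu, Hnrnpd and Hnrpll.

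The coding sequence held most summits on these genes. Per animal, a mean of 58.2% ± 7.36 (SD, n = 24) of the summits on splicing protein genes lay in coding sequence (CDS), against 38.7% ± 4.25 over all protein-coding genes, and the share was above that of all genes in 24 of 24 animals. The intron share was 17.7% ± 5.49 against 31.3% ± 4.40 and was lower in 24 of 24 animals. In 3′UTRs the share was 12.4% ± 5.17 against 22.2% ± 1.67, higher in 1 animal only. For 5′UTRs it was 8.03% ± 3.94 against 6.19% ± 1.07, and for exons of transcripts without coding sequence there 3.70% ± 2.37 against 1.58% ± 0.173. The direction was the same over regions, of which each counts once: 68 of 104 regions with a summit (65.4%) were CDS regions, against 39.1% of 66550 on all genes, and 15 of the 20 steady ones (75%), against 44.2%. By group the CDS share was 59.5% ± 9 for hnRNP, 63.7% ± 9.01 for SR and 44.8% ± 21.8 for SF3 genes (SD, n = 24). The SF3 genes differed from the rest in their 3′UTR share of 43.5% ± 21.9, which came mostly from Sf3b5, Sf3b1 and Sf3b3 with 21, 16 and 14 summits there, against 3.99% ± 3.47 for hnRNP genes. Because the 24 animals share the genes, the animals counted are repeats of a measurement of the same transcripts and the shares were not tested.

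**Figure D3:**
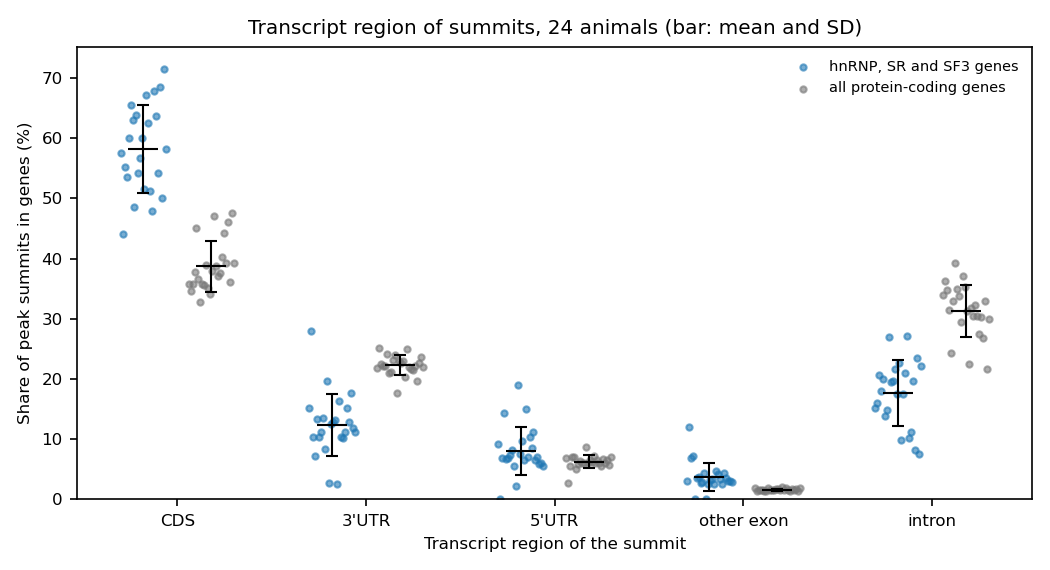
Share of peak summits by transcript region (y axis, percent of the animal's summits in genes), 1 point per animal, for the 40 splicing protein genes and for all protein-coding genes, with the mean and SD over 24 animals. The CDS points run from 44% to 71.6% for the splicing protein genes and from 32.7% to 47.5% for all genes, and the intron points lie the other way round.

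Peaks on these genes were called with moderate confidence but with low enrichment. Every peak was ranked within its own list, and a gene's rank was the percentile of its best peak (100 is the top of the list), as the median over animals with a peak. Among the 25 genes with peaks in 12 or more animals, the rank by the −log10 q value had a median of 58.2 (20.1 to 82.3), against 75.7 over 10923 genes filtered the same way. By fold enrichment at the summit, the ratio of pull-down to the input-based background, the median rank was 18.7 (1.68 to 61.4) against 69.2. The fold enrichment of the best peak itself had a median of 3.24 against 6.07, and 22 of the 25 genes (88%) were below the middle of the list by fold, against 29.6% of all genes. This held in each group, with 11 of 13 hnRNP, 7 of 8 SR and 4 of 4 SF3 genes. Input reads were not analysed here, so the ranks could not be set against the amount of each transcript.

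The 10 highest median ranks by q value belonged to Hnrnpul1 (82.3), Srsf4 (79.9), Sf3b5 (79.3), Hnrnph2 (77.7), Srsf12 (76.3), Hnrnpa0 (74.1), Hnrpdl (72.2), Hnrnpr (71.5), Hnrnpm (62.6) and Hnrnpu (62.6). The span over animals was wide for most of them. Srsf4 (SRp75) ranged from 52.5 to 91.7 over 24 animals and Hnrnph2 from 49.8 to 85, while Hnrnpu ran from 4.05 to 98.7, so that the order among the 10 lies within the spread between animals. Among the 25 genes the largest median fold enrichments were 5.56 (3.78 to 8.03) for Hnrnpf, a G-run binder, and 5.35 (3.24 to 12.5) for Srsf12, and Hnrnpa3 had the lowest at 1.90 (1.66 to 3.02).

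GGAC, a common form of the DRACH motif, was looked for on the transcribed strand in 100 bp windows around the 1032 summits that lay in a single gene. A GGAC followed by A, C or T is also a DRACH match. The share of windows with GGAC was 36.5% ± 6.40 (SD, n = 24 animals) for the splicing protein genes and 41.6% ± 1.58 for all protein-coding genes, and it was higher for the splicing protein genes in 6 of 24 animals. DRACH was in 76.6% ± 5.68 against 85.5% ± 0.98 of windows. With exonic summits alone the GGAC shares were 36% ± 6.12 and 47.0% ± 2.28. The lower share describes these letters in these windows and says nothing of how much of the RNA was methylated.

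Copies of a gene elsewhere in the genome bear on what could be called, because reads that map to more than 1 place had been removed. Of the 32-base words in the exons of each gene, the share found more than once in the genome had a median of 3.58% over the 40 genes. Repeats within the gene itself were counted too. This share had a median of 0.802% over the 25 genes with peaks in 12 or more animals, of which 6 were above 50%. Over the other 15 the median was 8.51%, and 2 were above 50%. The 3 genes with no call stood at 22.6% (Hnrnph1), 38.1% (Hnrnpc) and 48.1% (Srsf3), and Hnrnpa1, called in 1 animal, at 89.2%. Yet Srsf6, Sf3b2 and Hnrnpul2 stood at 0% with few calls, and Hnrnpa3 (89.6%), Hnrnpf (73.6%), Sf3b4 (62.3%), Srsf5 (61.2%) and Hnrnpr (51%) were called in 18 to 24 animals. The steady regions of Hnrnph2, Hnrnpr and Srsf5 themselves had 66.6%, 60.8% and 52.6% of their words more than once in the genome. The study's reads were paired and longer than 32 bases, so a repeated word does not by itself make a read map to more than 1 place. Counts on these genes are uncertain where copies can take whole reads, and the part of the copies in the calls was not tested.

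The lists differed in length between animals, and the calls on these genes went with it. A list held 22601 to 57293 peaks, of which 25 to 86 (median 39) lay on the splicing protein genes, or 0.077 to 0.175%. Naive KI mice at 8 months had the longest lists (37948, 51735 and 57293 peaks) and the most peaks on these genes, with 47, 80 and 86 and a mean of 71 ± 21 (SD, n = 3), against 44.0 ± 15.4 in naive WT mice of that age (31, 40 and 61). The 2 groups overlapped. When each list was shortened to its 22601 best peaks, the numbers were 24.3 ± 3.51 and 27.3 ± 2.89, and over the 24 animals they ran from 18 to 33. Over ages, 35.6 ± 8.35 peaks at 5 months and 52.8 ± 17.9 at 8 months (n = 12 each) became 25.0 ± 4.26 and 26.7 ± 2.90. Peaks were also narrower in the long lists: the median width was 172 bp and 197 bp in the 2 longest. Read numbers per library are not in the lists, so the length of the list was the only measure of yield, and its cause was not tested. A pair of 5-month animals stood apart. Of the 7 regions on these genes called in exactly 23 animals, 5 lacked a call only in 1 of the naive WT mice and 2 only in 1 of the trained WT mice. These 2 animals also accounted for 32.2% and 36.7% of such gaps over all 3030 regions. The number of genes with a peak in every animal was 17 without that naive mouse and 14 without that trained mouse.

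**Figure D4:**
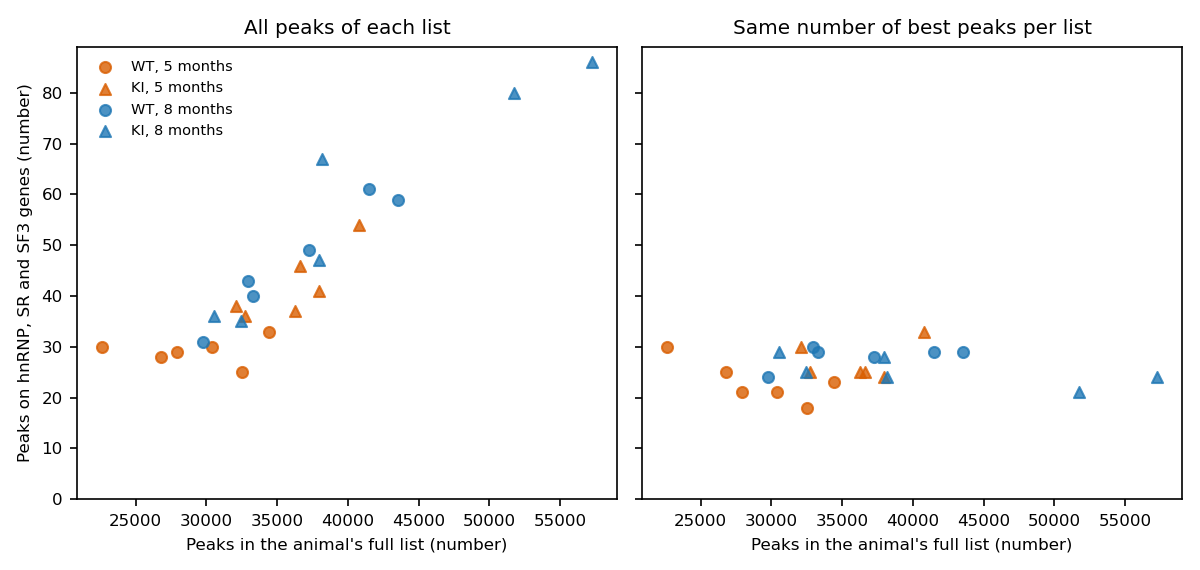
Peaks on the 40 splicing protein genes (y axis, number) against the length of each animal's list (x axis, number of peaks), for all peaks (left) and for the 22601 best peaks of each list (right), 1 point per animal by genotype and age. On the left the numbers run from 25 to 86 and go up with the length of the list, and on the right they lie between 18 and 33.

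A region was counted as reproducible in a condition with calls in at least 2 of its 3 animals. The splicing protein genes had 29 such regions in naive and 26 in trained WT mice at 5 months, 37 and 38 in naive and trained KI mice at 5 months, 39 and 43 in WT mice at 8 months, and 63 and 36 in KI mice at 8 months. The 63 of naive KI mice at 8 months were 0.159% of that condition's regions, and the other conditions stood between 0.107% and 0.138%. With the shortened lists that condition had 17.

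Whether calls differed by genotype, training or age was tested region by region, with a 2-sided Fisher's exact test on called and not called animals (12 against 12) over the 35110 regions called in 3 to 21 animals, adjusted by Benjamini-Hochberg. No region of the 53 on splicing protein genes differed at adjusted p under 0.05. Over all regions the share was 0.00285% for genotype, 0% for training and 0% for age. Before adjustment, 1 of 53 differed by genotype (1.79% of all regions, and 1.72% toward KI), 0 of 53 by training (1.44%, and 0.128% toward trained mice) and 9 of 53 by age (9.8%, and 8.86% toward 8 months).

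For genotype the region was a CDS region of Hnrnpl, the gene of a CA-repeat binder, at chr7:29595781-29596223. It had calls in 5 of the 12 WT mice and in 11 of the 12 KI mice (Fisher's exact p = 0.0272, adjusted p = 1). By condition the calls were 1 and 0 of 3 in naive and trained WT mice at 5 months, 3 and 3 in KI mice at 5 months, 3 and 1 in WT mice at 8 months and 3 and 2 in KI mice at 8 months. Next came a CDS region of Hnrnpm (chr17:33814256-33814569, 5 WT and 10 KI mice, exact p = 0.0894), an intronic region of Hnrnpf (chr6:117855922-117856535, 8 and 12, exact p = 0.0932), a CDS region of Sfrs18 (chr4:21792923-21793107, 0 and 4, exact p = 0.0932), and, with an exact p of 0.155 each, the last-exon 3′UTR region of Sf3b1 and a CDS region of Hnrnpul1 (7 and 11 for both). All 6 were called more often in KI mice. Of the 53 regions 83% were called more often in KI mice, against 67.5% of all regions, and with the shortened lists 45.9% against 42.1%.

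Training gave no region on these genes below an unadjusted p of 0.05. The lowest exact p, 0.0932, was that of a CDS region of Srsf4 (chr4:131429505-131429751) called in 4 naive and 0 trained mice. The 4 were naive mice at 8 months, 2 WT and 2 KI. The 5′UTR region of Sf3a1 was called in 5 naive and 1 trained mice and the 3′UTR region of Sf3b1 in 11 and 7 (exact p = 0.155 each), and the Hnrnpl CDS region in 10 and 6 (exact p = 0.193). Regions in Hnrpdl (chr5:100465945-100466256) and Sf3a3 (chr4:124392813-124393056) were called in 3 naive and 0 trained mice (exact p = 0.217 each). In these 6 the naive mice had more calls, as they had in 60.4% of the 53 regions and 63.1% of all. With the shortened lists the direction turned: trained mice had more calls in 62.2% of 37 regions on these genes and fewer in 27%, against 41.6% and 41.5% of all regions.

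By age the 9 regions were all called more often at 8 months, and they lay on Hnrnpul1, Hnrnpul2, Hnrnpf, Sf3a1, Srsf4 and Srsf9. A CDS region of Hnrnpul1 (chr7:26510973-26511353) was called in 3 mice at 5 months and 10 at 8 months (exact p = 0.0123, adjusted p = 0.312). A group of 3 regions was called in 0 mice at 5 months and 6 at 8 months (exact p = 0.0137, adjusted p = 0.312 each): the Hnrnpul2 CDS region shown above, the 5′UTR region of Sf3a1 (chr11:4060166-4060642) and an Srsf4 CDS region (chr4:131447870-131448061). In each of the 3, all 3 naive KI mice at 8 months were among the 6. A further Srsf4 CDS region (chr4:131453404-131453685) was called in 1 and 7 mice (exact p = 0.0272), and a total of 3 inner regions of Srsf4 were among the 9, beside its last-exon region that was called in all 24 animals. With lists of the same length, 1 of 37 regions on these genes passed an unadjusted p of 0.05 (6.09% of all), and that one was called less often at 8 months. The share of regions called more often at 8 months went from 90.6% (61.6% of all regions) to 48.6% (42.2%).

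The deposited tables compare the level of reproducible peaks between conditions (DiffBind with DESeq2, 3 animals a condition, or 6 where both genotypes were joined). A level is the authors' mean of a condition in log2 normalized reads, the study's thresholds for a differential peak were kept (DESeq2 adjusted p below 0.05, change of more than 1 on the log2 scale), and the tables list no peak with a p above 0.05. The tables name genes by older symbols, so 6 further genes entered with a member symbol. They include Sfswap, a splicing regulator with an arginine and serine rich domain (as Srsf8), Clasrp, an SR protein that binds the kinase CLK4 (as Sfrs16), and Sugp2 (as Sfrs14), Srek1 (as Srsf12), Srek1ip1 (as Sfrs12ip1) and Scaf4 (as Srsf15). Several of the 10 comparisons share a condition: each condition at 8 months enters 3 of those with a differential peak on these genes, so their results are not independent.

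In these counts, here and below, the genes entered by an older symbol are taken with the members. Between genotypes, 6 peaks on these genes were differential. In naive mice at 5 months 1 was higher in KI and 0 lower among 55 reproducible regions (over all regions 0.723% held a peak higher in KI and 0.401% one lower). In naive mice at 8 months 2 were higher, both on genes entered by an older symbol (Sfswap and Clasrp), and 2 lower of 96 regions (0.89% and 0.233% over all). In trained mice at 5 months there were 0 in either direction of 53 (0.791% and 0.489%), and in trained mice at 8 months 1 higher and 0 lower of 62 (0.432% and 1.06%). The counts of 0 to 2 are small, and whether their shares differ from those over all regions was not tested.

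The Hnrpll peak in exon 1 (chr17:80461139-80461403) differed in naive mice at 5 months. Hnrpll encodes a relative of hnRNP L known for the alternative splicing of CD45 in T cells. Its deposited level was 8.6 in KI and −0.11 in WT mice, a log2 fold change of 8.71 (DESeq2 adjusted p = 2.1e-11), where −0.25 was the lowest level in that table. In the lists of single animals the same stretch had a peak in 3 of 3 KI mice, with fold enrichments of 2.24, 2.31 and 1.74, and in 1 of 3 WT mice, where the fold enrichment of 2.67 was higher than in any of the KI mice. Over all 24 animals there was a peak in 12 of the 12 KI mice and in 6 of the 12 WT mice. In the conditions outside that comparison the numbers were 9 of 9 KI and 5 of 9 WT mice, a difference seen after the peak had been picked and not tested. In naive mice at 8 months the peak was listed with a level of 8.47 in KI and 7.51 in WT mice (log2 fold change 0.96, DESeq2 adjusted p = 0.0157).

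In naive mice at 8 months the deposited levels and the calls disagreed in direction for Hnrnpul2 and Hnrnpf. The Hnrnpul2 peak (chr19:8897920-8898114) had a level of −0.33 in KI, the lowest in that table, and 4.74 in WT mice, and its log2 fold change was −5.07 (DESeq2 adjusted p = 0.00282). Yet it was called in 3 of 3 KI mice, with fold enrichments of 4.45, 3.8 and 3.09, and in 1 of 3 WT mice, with 2.78. The peak at the 5′UTR of Hnrnpf (chr6:117856647-117857099) had a level of 1.97 in KI and 5.52 in WT mice (log2 fold change −3.56, DESeq2 adjusted p = 0.00453). It was called in 3 KI mice (3.65, 3.41 and 2.77) and in 2 WT mice (2.91 and 5.12). For the other 2 peaks levels and calls went the same way. The 3′UTR peak of Sfswap (chr5:130076821-130077131) had a level of 5.32 in KI and −0.13 in WT mice (log2 fold change 5.44, DESeq2 adjusted p = 0.00085) and was called in 3 KI mice (3.94, 2.98 and 2.25) and 0 WT mice. The CDS peak of Clasrp (chr7:20171727-20172028) had 6.68 and 5.57 (log2 fold change 1.12, DESeq2 adjusted p = 0.0122), with calls in 3 KI mice and 1 WT mouse.

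The comparison of trained mice at 8 months held a 3′UTR peak of Hnrnpa3, a member of the hnRNP A/B family (chr2:75503059-75503486). Its level was 9.68 in KI and 2.74 in WT mice, with a log2 fold change of 6.95 (DESeq2 adjusted p = 0.000425). Calls were in 3 KI mice, with fold enrichments of 1.56, 1.86 and 1.71, and in 2 WT mice, with 1.86 and 1.80, so that the fold enrichments of the 2 genotypes overlapped. The common region at this peak had 18 summits, but the whole gene had only 11 in 3′UTRs. The 3′UTR label of this peak, here and below, is therefore uncertain.

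After training, 5 peaks were differential, counted per comparison, so that those of Hnrnpa3 and Sfswap enter more than once. In WT mice at 5 months there were 0 of 44 regions in either direction (over all regions 0.348% held a peak higher and 1.31% one lower in trained mice), and in KI mice at 5 months 0 higher and 1 lower of 56 (0.401% and 1.93%). Over both genotypes at 5 months there were 0 of 58 (0.398% and 0.214%), and at 8 months 0 higher and 1 lower of 97 (0.419% and 0.292%). WT mice at 8 months had 0 higher and 1 lower of 63 (1.24% and 0.589%), and KI mice at 8 months 1 higher and 1 lower of 94 (0.367% and 0.78%).

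The Hnrnpa3 3′UTR peak had a lower deposited level after training in KI mice at 5 months and in WT mice at 8 months. At 5 months (chr2:75503040-75503506) its level in KI mice was 8.7 when naive and −0.15 when trained (log2 fold change −8.84, DESeq2 adjusted p = 6.31e-19). It was called in 2 of 3 mice of both conditions, with fold enrichments of 2.06 and 2.02 in naive and 1.70 and 1.72 in trained mice. In WT mice at 8 months (chr2:75502949-75503483) the level was 8.36 when naive and 2.37 when trained (log2 fold change −6.00, DESeq2 adjusted p = 0.0167), again with calls in 2 of 3 mice of each. Here the fold enrichments were 1.78 and 1.76 in naive and 1.86 and 1.80 in trained mice, so they did not fall with the level. Over all 24 animals the stretch was called in 18, with fold enrichments from 1.56 to 2.11, the narrowest span among these peaks. Between 27.0% and 36.2% of its 32-base words were found more than once in the genome.

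Among KI mice at 8 months, the Sfswap peak had a level of 5.36 when naive and 0.00 when trained (log2 fold change −5.37, DESeq2 adjusted p = 0.000547), with calls in 3 and 1 of 3 mice. Over both genotypes at that age it had 4.34 and −0.08 (log2 fold change −4.42, DESeq2 adjusted p = 0.00748), with calls in 3 and 2 of 6 mice. The 3 naive calls were those of the same KI mice. Of the 2 trained calls 1 was in a WT mouse, so the calls in WT mice went the other way. The Hnrnpf peak (chr6:117856867-117857099) had −0.28 when naive and 4.50 when trained (log2 fold change 4.78, DESeq2 adjusted p = 0.000358). Here the calls went the other way, in 3 of 3 naive and 1 of 3 trained KI mice. Naive KI mice at 8 months are on the low side of both Hnrnpf results and on the high side of the Sfswap results.

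**Figure D5:**
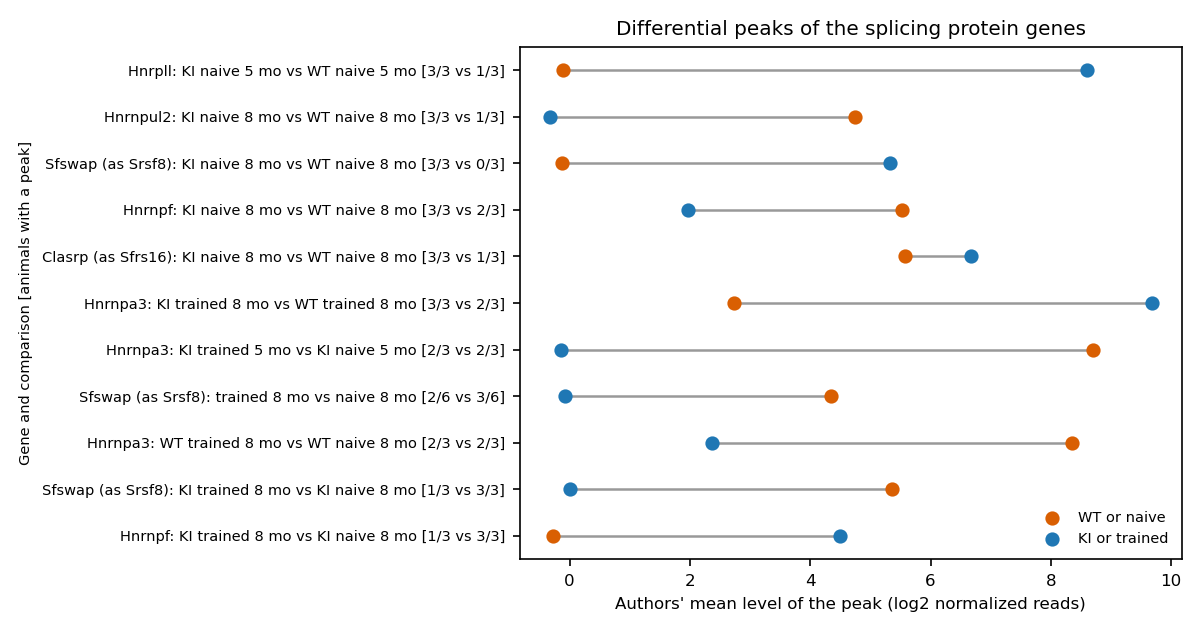
Authors' mean levels of the 11 differential peaks (x axis, log2 normalized reads) in the 2 groups of each comparison, joined by a line, with the number of animals that had a peak in brackets (KI or trained first). Hnrnpa3, Sfswap and Hnrnpf have more than 1 row. In 10 of the 11 rows at least 1 dot lies below 3. The rows of Hnrnpul2 and Hnrnpf show the lower level in the group with more called animals.

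Of the 11 differential peaks on these genes, the level and the number of called animals had the same direction for 6. There was a tie for 2 and the opposite direction for 3 (27.3%). The 11 are not separate sites, because Hnrnpa3, Sfswap and Hnrnpf recur across comparisons. The 3 opposite results lay on Hnrnpul2 and Hnrnpf alone, and the older naive KI mice were the low group in each. The 27.3% is thus not a share of independent peaks, and it was not tested against the share over all peaks. Over all 4662 differential peaks of the 10 tables the direction was the same for 69.7% and opposite for 4.4%. Among the 610 of them with a log2 fold change beyond 3 it was the same for 63.6% and opposite for 10.3%. A level and a call are different measures, one from reads of a shared stretch and one from each animal's own threshold, and input reads were not analysed here, so no change of a peak could be set against a change of the mRNA.

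The genes with no row in any of the 10 tables were Hnrnpa1, Hnrnpa2b1, Hnrnpab, Hnrnpc, Hnrnph1, Hnrnpk, Hnrnpr, Sf3a2, Sf3a3, Sf3b1, Sf3b2, Srsf2, Srsf3, Srsf6 and Srsf7. Of these, Hnrnpr and Sf3b1 were called in 24 and 18 animals, and for the rest the calls were in 8 animals or fewer.

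Among 36 partner genes of these proteins, 13 had a peak in all 24 animals, 15 in 1 to 23 and 8 in none. The kinases and the importer of SR proteins had 5 of 9 in all animals (Srpk1, Srpk2, Clk2, Clk3 and Prpf4b), SR-related genes 4 of 8 (Srrm2, Son, Acin1 and Pnn) and other hnRNP-like genes 4 of 11 (Syncrip, Ralyl, Pcbp3 and Tardbp), whereas of the 8 further U2 and branch site genes none was called in all 24, with Sf1 in 23 and U2af1 and Snrpb2 in 0. The genes with no call also took in Tra2a, Tra2b, Raly, Ptbp1, Clk4 and Srpk3. Differential peaks in any of the 10 comparisons were found on 3 partners (8.33%), against 11.1% of all 22238 protein-coding genes. Srpk2, a kinase of SR proteins, had one higher in naive KI than WT mice at 8 months (7.16 and 6.11, log2 fold change 1.06, DESeq2 adjusted p = 0.0219) and another lower in trained than naive mice at 5 months (3.67 and 6.05, log2 fold change −2.37, DESeq2 adjusted p = 0.0438). Ralyl had one higher in trained KI than WT mice at 8 months (7.93 and 6.85, log2 fold change 1.08, DESeq2 adjusted p = 9.19e-06), and Srrm1, a coactivator with arginine and serine repeats, one lower in trained than naive WT mice at 8 months (7.47 and 8.97, log2 fold change −1.49, DESeq2 adjusted p = 3.95e-05).

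As a check of the tissue label, the hippocampal neuron genes Prox1, Wfs1, Fibcd1, Neurod6, Zbtb20 and Grik4 had peaks in all 24 animals. Of 4 genes typical of neighbouring tissue, the choroid plexus gene Ttr had none, and Kl, Drd1a and Adora2a had peaks in all 24. A call does not give the amount of a transcript, and the part of other tissue in these samples was not tested.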

How the data were processed

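Peak lists of 24 m6A-IP libraries (STAR 2.7.3a, MACS2 2.2.6, mm9, per the labels) were used as deposited. Per the study's methods, uniquely mapped reads were kept, reads in repeats were removed and peaks were called for each pull-down against its input. The inputs were not analysed here. The deposited lists give the fold enrichment at the summit as a ratio and q as −log10 values. The 10 deposited comparison tables (DiffBind 2.8.0 with DESeq2, by the authors) give mean levels and fold changes on a log2 scale with p-values and adjusted p-values, listing p up to 0.05. Every table's own key names the same pair of conditions, so the groups were taken from the design text. These columns are the authors' own comparisons and are printed as deposited, without a new test.

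Peaks overlapping by 1 bp over all animals were joined into common regions (bedtools 2.31.1, Python 3.11.15, pandas 2.3.3), and a gene or region was called in an animal with a peak on it. Calls were compared by Fisher's exact test (scipy 1.17.1) on regions called in 3 to 21 animals, with Benjamini-Hochberg adjustment over all of them. The test was checked on simulated data. Each summit got 1 class, with CDS before 3′UTR, 5′UTR, other exons and introns. Figures were drawn with matplotlib 3.10.9. Reads per library are not in the lists, so depth is known only as the number of peaks. Replicates were separate animals. Alternatives tried were 50% reciprocal overlap, −log10 q of 5 or more, the 22601 best peaks of each list, a test stratified by the other factors, leaving out each animal, other thresholds of the tables and other motif windows. Leaving out Hnrnpul1 and the count of 32-base words were added after seeing the data.

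The members and lists were chosen with earlier results of these data known. Named were the members with a differential peak, the 5 lowest Fisher p for each factor (ties included), the 10 highest ranks, the members without a peak, and the partners with a differential peak. Of 32 symbols with a member prefix in the tables, 6 denote other genes of the annotation.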

Additional observations from a re-analysis of the deposited data

How the results depend on the processing

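Of 337 recomputed values over 29 results, 308 kept their call or stayed within the limits set and 29 moved. No paired analysis was possible because no animal stands in more than 1 condition and the animal numbers are shared only between a pull-down and its input, which was not analysed here. The counts of regions differing by genotype, training or age at adjusted p under 0.05 were 0 under each alternative run, leaving out each animal included, and the CDS share of summits stayed between 55.8% and 60.1%, without Hnrnpul1 too. Other counts went with the length of the lists. With −log10 q of 5 or more, 6 genes had a peak in every animal in place of 12, and naive KI mice at 8 months had 28 reproducible regions in place of 63. With the same number of best peaks, 5 genes had one in every animal, and reproducible regions numbered 19 in naive WT and 23 in trained KI mice at 5 months, and 22 in naive WT, 25 in trained WT and 17 in naive KI mice at 8 months. With 50% reciprocal overlap trained KI mice at 5 months had 23 and trained WT mice at 8 months 28. Leaving out 1 animal gave 16 to 27 reproducible regions in naive WT mice at 5 months, 16 without either of 2 of its mice, and 12 to 17 genes with a peak in every animal.

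By fold enrichment, 6 of the 10 top genes remained. At adjusted p alone, in the order of the comparisons (KI against WT in naive mice at 5 and 8 months, then trained mice at 5 and 8 months), 4, 10, 4 and 3 peaks passed (40%, 66.7%, 44.4% and 18.8% of those listed, against 41.9%, 44.3%, 46.1% and 54% of all listed peaks). For training the numbers were 5 (WT, 5 months), 7 (KI, 5 months), 1 (both, 5 months), 11 (both, 8 months), 11 (WT, 8 months) and 9 (KI, 8 months), or 50%, 43.8%, 10%, 55%, 64.7% and 52.9% against 48.9%, 61.2%, 22%, 42.1%, 60.4% and 48.6%. Members taken by overlap with the annotated bodies, which drops the older symbols, left 2 peaks in naive mice at 8 months, 0 for training over both genotypes at 8 months and 1 in KI mice at 8 months. At adjusted p under 0.01, WT mice at 8 months had 0. GGAC was in 20.1% of 50 bp and 56.8% of 200 bp windows.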

Other observations

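Smaller changes below the log2 fold change of 1 were listed for other regions of these genes, some called in nearly every animal and some in fewer. They were named after their values were seen. The region of Hnrnpl at the exon of a retained-intron transcript, called in 23 of 24 animals, was lower in trained than naive WT mice at 5 months (11.04 and 11.60, log2 fold change −0.56, DESeq2 adjusted p = 8.37e-05) and at 8 months (11.25 and 11.56, log2 fold change −0.32, DESeq2 adjusted p = 3.58e-06). It was higher in trained KI than trained WT mice at 5 months (11.25 and 10.87, log2 fold change 0.38, DESeq2 adjusted p = 0.00531), a comparison that shares the trained WT mice with the first.

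The CDS region of Srsf4 in its last exon was higher in naive KI than WT mice at 5 months (13.66 and 12.93, log2 fold change 0.73, DESeq2 adjusted p = 0.0116). The region of Hnrpdl was lower in trained than naive WT mice at 8 months (11.85 and 12.13, log2 fold change −0.29, DESeq2 adjusted p = 0.000259), and that of Sfrs18 was higher (14.41 and 14.09, log2 fold change 0.32, DESeq2 adjusted p = 0.000342). At 5 months the Sfrs18 region lay the other way in WT mice and missed the threshold (14.26 in trained and 14.61 in naive mice, log2 fold change −0.34, DESeq2 adjusted p = 0.0542). A CDS peak of Hnrnpd, called in 12 of 24 animals, was higher in naive KI than WT mice at 8 months (9.50 and 8.79, log2 fold change 0.71, DESeq2 adjusted p = 0.00183) and lower in trained than naive KI mice at 5 months (8.02 and 8.91, log2 fold change −0.89, DESeq2 adjusted p = 0.000349). The 3′UTR peak of Sf3b3, called in 15 of 24 animals, was higher in trained than naive KI mice at 5 months (8.31 and 7.39, log2 fold change 0.92, DESeq2 adjusted p = 0.000895). In the comparison over both genotypes at that age, which shares these mice, it was lower in trained mice (7.5 and 8.19, log2 fold change −0.69, DESeq2 adjusted p = 0.035). In trained mice at 5 months 9 of 9 listed peaks with a member symbol were higher in KI mice, where 78.7% of all listed peaks were.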
